A study of Mus musculus with 6 samples.

Results

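Rprml, Ccn3, Myo5b, Nptx1, Thy1, Syndig1l, Ramp3, Cck, Gda and Cdkl2 are 10 genes of mouse corticothalamic projection neurons, out of 18193 genes with a named probe set, of which 13645 were tested. They were chosen by measured values, namely a large difference of P6 and P3 from E18, and they belong to no single functional family. All 10 passed the filter on dim genes, a mean of at least 5.97 log2 units over the 6 arrays. Rprml, Ccn3, Nptx1 and Cdkl2 had E18 means below that limit and passed through their P3 and P6 arrays. The choice was by name and had no stated threshold. The members held ranks 1, 2, 4 to 9, 17 and 18 among all genes tested in the difference P6 minus E18. The 8 other genes within the first 18 were Gng4, Vsnl1, Grm3, Galnt9, Cdh9, Ptk2b, Ipcef1 and Grp. Cdkl2, the member at rank 18, stood at 4.21 log2 units, and Necab1, the next gene, stood at 4.20.

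The data are 6 arrays, with 2 each from wild-type C57BL/6 mice at E18 (collected at E18.5), P3 and P6. The neurons were labelled from their axon targets: green fluorescent microspheres were placed in the thalamus at E17.5, P1 and P4, and labelled cells were sorted from dissociated cortex by fluorescence. Labelling lasted 1 day at E18 and 2 days at P3 and P6, so its length cannot be told apart from the stage in comparisons with E18. The labels give neither the number of animals nor the origin of the replicates, so p-values measure the spread between these arrays, which may be technical.

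Corticothalamic neurons lie mainly in layer 6 of the cortex and send glutamatergic axons to the thalamus. Around birth these axons enter their target, and in the following days dendrites grow, synapses form and surface proteins, receptors and neuropeptides of the mature neuron appear. The 10 members cover several of these roles. Nptx1 is a secreted protein of synapses, Syndig1l a transmembrane relative of a synaptic protein, and Thy1 a surface protein. Ccn3 and Cck are secreted signals, Ramp3 is a receptor partner and Myo5b a membrane motor. Gda, Cdkl2 and Rprml are proteins of the cell interior or of less known function.

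The P6 and P3 pairs differed more within themselves than the E18 pair. The E18 arrays were nearly alike, as their log2 differences had an SD of 0.127, against 0.573 in the P3 pair and 0.457 in the P6 pair. P3 replicate 2 and P6 replicate 1 had high 18S ribosomal RNA signals, at 14.2 and 13.9 log2 units against 11.3 to 11.8 on the other arrays. The signal of 3′ over 5′ probe sets, a sign of RNA quality, moved with the stage: for Actb the log2 difference was 0.56 and 0.58 on the E18 arrays, 1.19 and 1.76 on those of P3 and 1.06 and 0.82 on those of P6, and for Gapdh it was 1.68 to 2.55 on the P3 and P6 arrays, against 1.44 to 1.48 at E18. The layer 6 list stood at 8.13 and 8.21 on the E18 arrays, 10.6 and 10.1 on the P3 arrays, and 10.8 and 10.6 on the P6 arrays (mean log2 value of 10 genes), and limma called all 10 higher at P3 than at E18. The lists of proliferating cells and of progenitors stood at 5.98 to 6.21 and 6.34 to 6.59 at P3, against 12.2 and 10.8 on both E18 arrays, with 6 of 6 and 7 of 9 genes called lower at P3. The astrocyte list stood at 9.50 and 9.49 on the E18 arrays. It stood at 6.47 and 6.77 on the P3 arrays and at 7.26 and 7.79 on the P6 arrays. Of its 8 genes, 5 were called lower and 1 higher at P3 than at E18. Over all genes tested, 25.7% were called lower and 15.5% higher. Fewer cells of a type and less RNA per cell cannot be told apart in such sorted samples, and the part of these lists and of RNA quality in the members' values was not tested.

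**Figure D1:**
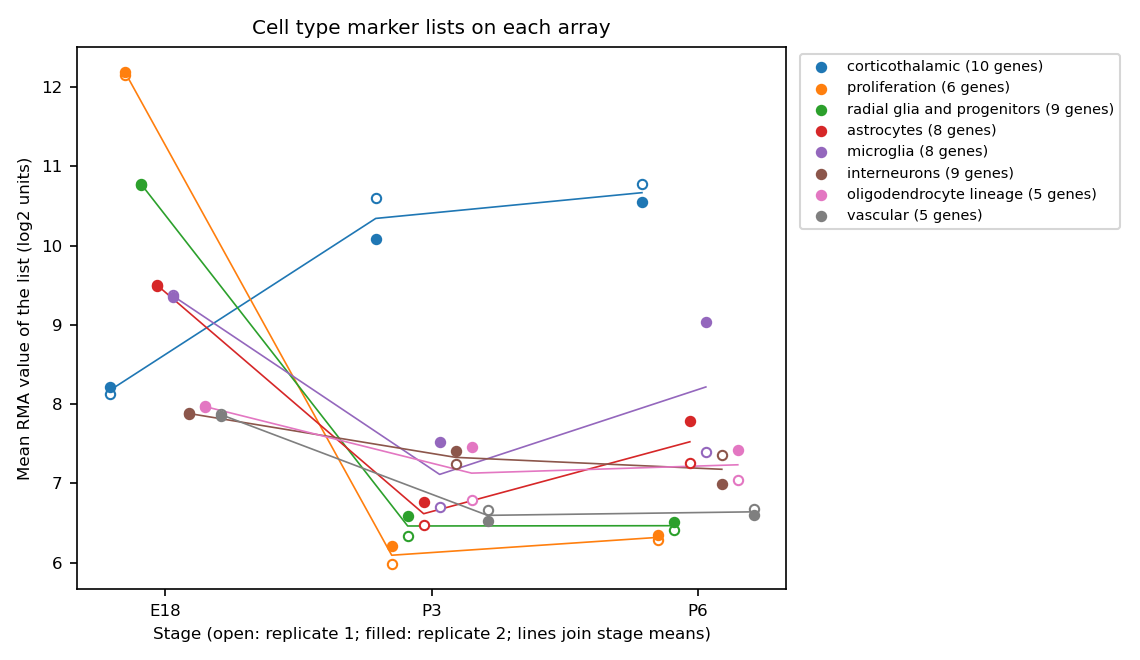
Mean RMA value (log2 units) of 8 cell type marker lists by stage, with open points for replicate 1, filled points for replicate 2 and lines through stage means. The proliferation list stood near 12.2 at E18 and at 5.98 to 6.35 at P3 and P6, while the microglia list stood at 9.04 on P6 replicate 2 and 7.40 on P6 replicate 1.

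Each gene is represented by its probe set of highest mean, and all values are deposited RMA values in log2 units, in which 1 unit is a factor of 2. Rprml encodes a small membrane protein related to Reprimo, a protein linked to cell cycle arrest. Its probe set (1436408_at) stood at 5.35 and 5.39 on the E18 arrays, 9.08 and 8.64 on the P3 arrays, and 9.89 and 10.99 on the P6 arrays. The stages did not overlap, and the P6 arrays lay furthest apart. Rprml was 11.2-fold higher at P3 than at E18 and 33.7-fold higher at P6 than at E18, the largest difference from E18 of all genes tested at P6.

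Ccn3, also called Nov, encodes a secreted protein of the extracellular matrix. It stood at 5.82 and 5.92 on the E18 arrays, 9.58 and 9.55 on the P3 arrays, and 10.59 and 11.07 on the P6 arrays (1426852_x_at). Its other probe set (1426851_a_at) gave 5.50 and 5.36 on the E18 arrays, 9.04 and 8.43 on the P3 arrays, and 9.80 and 10.28 on the P6 arrays. Both probe sets had 3 separate stages. The values of the first correspond to a 13.0-fold higher level at P3 and a 31.1-fold higher level at P6, each against E18.

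Myo5b encodes a class V myosin, an actin-based motor that moves recycling endosomes together with Rab11. It stood at 6.57 and 6.51 on the E18 arrays, 10.37 and 9.94 on the P3 arrays, and 11.48 and 11.19 on the P6 arrays (1452298_a_at), which is 12.2-fold higher at P3 and 27.7-fold higher at P6 than at E18. A second probe set (1437698_at) followed at smaller size, 4.78-fold and 7.31-fold. The remaining one (1441104_at) stayed between 5.37 and 5.95 on all arrays, 1.32-fold apart between P6 and E18.

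Thy1 encodes a small surface glycoprotein of the immunoglobulin superfamily, held by a lipid anchor and abundant on mature neurons. It stood at 7.32 and 7.27 on the E18 arrays, 10.50 and 10.65 on the P3 arrays, and 11.59 and 12.20 on the P6 arrays (1423135_at). It was 9.68-fold higher at P3 and 24.2-fold higher at P6 than at E18. Of the 10 members it had the smallest difference between P3 and E18, at rank 48 of all genes tested.

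Nptx1 encodes a secreted neuronal pentraxin that helps to gather AMPA-type glutamate receptors at synapses. It stood at 5.68 on both E18 arrays, 9.73 on both P3 arrays, and 10.41 and 10.27 at P6 (1434877_at), or 16.6-fold higher at P3 and 25.3-fold higher at P6 than at E18. The 3 stages of this probe set did not overlap, and its replicates lay at most 0.13 log2 units apart. The other probe set (1422130_at) gave 7.27 and 7.05 on the E18 arrays, 8.17 and 8.50 on the P3 arrays, and 7.61 and 8.56 on the P6 arrays, with the P6 and P3 arrays overlapping and a 2.26-fold difference between P3 and E18.

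Syndig1l encodes a transmembrane relative of SynDIG1, a protein of excitatory synapses. It stood at 6.25 and 6.13 on the E18 arrays, 10.80 and 9.83 on the P3 arrays, and 10.77 and 10.73 on the P6 arrays (1458342_at), so P3 replicate 1 was as high as both P6 arrays. A second probe set (1438355_at) gave 6.11 and 5.85 on the E18 arrays, 8.79 and 8.21 on the P3 arrays, and 10.03 and 9.69 on the P6 arrays, with 3 separate stages. The 2 probe sets of this gene therefore differ in whether P6 lies above P3.

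**Figure D2:**
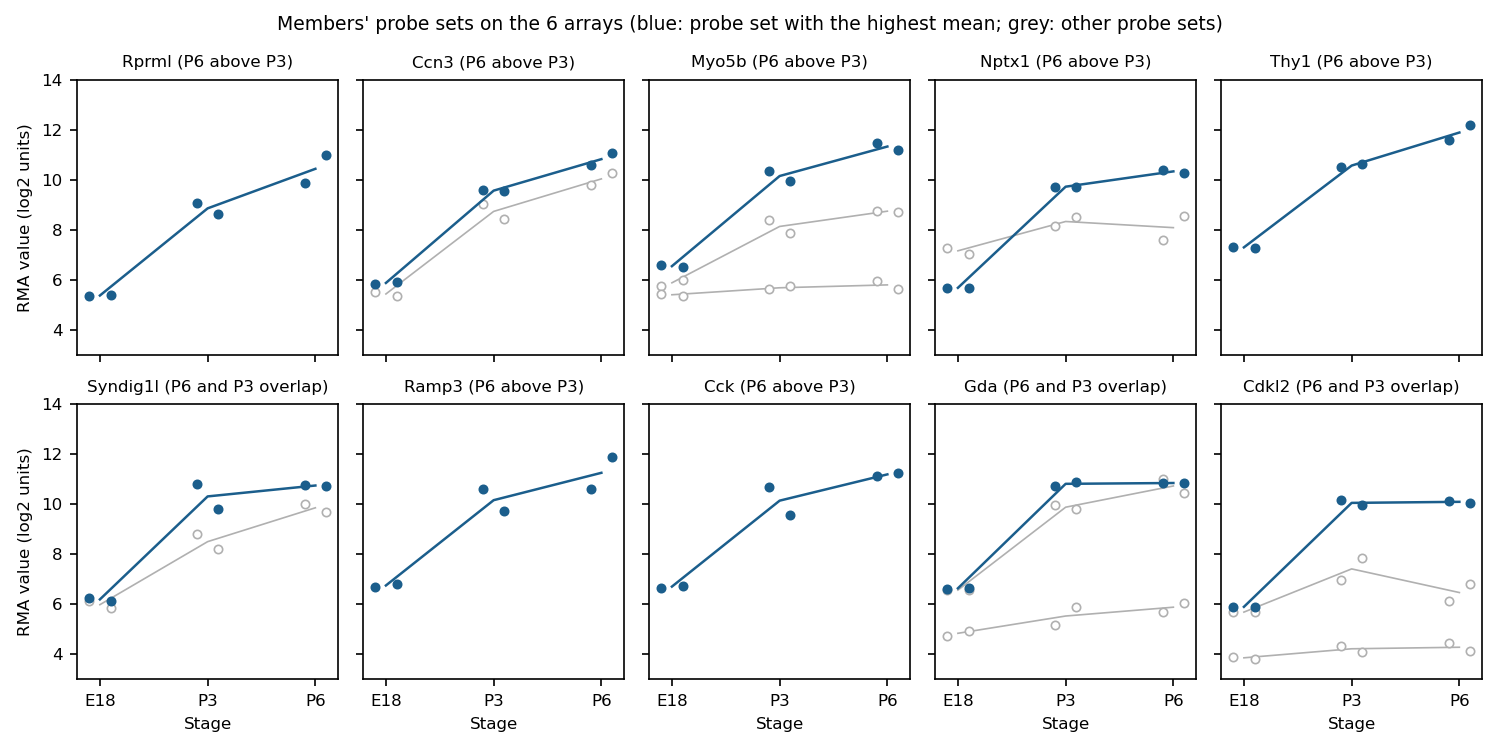
RMA values (log2 units) of all 19 probe sets of the 10 members by stage, with 1 point per array and lines through stage means; blue marks the probe set with the highest mean and grey the others. Both P6 arrays lie above the P3 arrays in the blue probe sets of 7 members and overlap with them in Syndig1l, Gda and Cdkl2.

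Ramp3 encodes a membrane partner that sets which peptides the calcitonin-type receptors bind. It stood at 6.68 and 6.82 on the E18 arrays, 10.61 and 9.72 on the P3 arrays, and 10.63 and 11.89 on the P6 arrays (1420401_a_at). P6 replicate 1 lay only 0.02 log2 units above P3 replicate 1. Microglia markers also differed between the P6 arrays: the mean log2 value of 8 genes was 9.04 on P6 replicate 2 and 7.40 on P6 replicate 1, and 6.71 and 7.52 on the P3 arrays, with none of the 8 below the lower quartile of any array. The list stood at 9.37 and 9.35 at E18, where Ramp3 was lowest. The part of these cells in the P6 value of Ramp3 was not tested.

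Cck encodes the precursor of the neuropeptide cholecystokinin, which cortical projection neurons and some interneurons make. It stood at 6.66 and 6.75 on the E18 arrays, 10.71 and 9.59 on the P3 arrays, and 11.13 and 11.27 on the P6 arrays (1419473_a_at), or 10.9-fold higher at P3 and 22.5-fold higher at P6 than at E18. The P3 arrays lay 1.12 log2 units apart, the widest P3 pair among the representative probe sets. Interneuron markers averaged 6.99 to 7.41 over 9 genes on the P3 and P6 arrays, against 7.87 and 7.89 at E18, and none of the 9 lay below the lower quartile of any array. Of 12 listed genes only these 9 passed the filter on dim genes, which favours values above that quartile. Limma called 3 of the 9 lower and 1 higher at P3 than at E18, near the 25.7% and 15.5% over all genes. The higher one was the neuropeptide gene Npy, named here after its values were seen, at 10.6 on both P3 arrays against 9.09 on both E18 arrays. The part of interneurons in the Cck value was not tested.

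Gda encodes guanine deaminase, also called cypin, which breaks down guanine and binds the postsynaptic scaffold PSD-95. It stood at 6.62 and 6.65 on the E18 arrays, 10.73 and 10.91 on the P3 arrays, and 10.84 and 10.87 on the P6 arrays (1435749_at), and both P6 arrays lay between the P3 arrays. It was 18.2-fold higher at P3 and 18.6-fold higher at P6 than at E18. A second probe set (1435748_at) gave 6.58 and 6.55 on the E18 arrays, 9.96 and 9.80 on the P3 arrays, and 11.01 and 10.46 on the P6 arrays, with 3 separate stages, and the remaining one (1422868_s_at) was dim, between 4.74 and 6.06.

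Cdkl2 encodes a serine/threonine kinase of the cyclin-dependent kinase-like family. It stood at 5.89 on both E18 arrays, 10.16 and 9.96 on the P3 arrays, and 10.15 and 10.05 on the P6 arrays (1449229_a_at), 17.9-fold higher at P3 and 18.4-fold higher at P6 than at E18. A second probe set (1457625_s_at) stood at 5.68 on both E18 arrays, 6.99 and 7.84 on the P3 arrays, and 6.14 and 6.79 on the P6 arrays, the only one of the 19 with both P6 arrays below both P3 arrays. The remaining one (1441820_at) stayed between 3.82 and 4.43.

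Across the 19 probe sets, both P3 arrays lay above both E18 arrays in all 19, although 3 differed by less than 1 log2 unit between these stages. The median difference of the members was 3.65 log2 units for P3 minus E18 and 4.58 for P6 minus E18, against -0.13 and 0.08 over all genes tested. Since these contrasts chose the members, nothing is read from the 19 of 19 or from those medians. The share of all probe sets with both P3 arrays above both E18 arrays is not given here. Among all genes limma called 15.5% higher and 25.7% lower at P3 than at E18, and 14.8% higher and 16.9% lower at P6 than at E18 (adjusted p below 0.05). Of the P3 minus E18 calls 37.6% were higher, and 50.8% with quantile normalization, which also moved the median of all genes to 0.09 log2 units.

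The members reached different shares of their P6 level by P3. Gda and Cdkl2 had 99.2% and 99.0% of their P6 minus E18 difference at P3, on the log2 scale. Syndig1l had 90.4%, Nptx1 86.9%, Cck 76.6%, Ramp3 75.7%, Myo5b 75.4%, Ccn3 74.6%, Thy1 71.2% and Rprml 68.8%. These shares contain the contrasts that chose the members and are a description. In 7 members both P6 arrays lay above both P3 arrays, and in the other 3, Syndig1l, Gda and Cdkl2, the stages overlapped. Over all genes tested 30.6% had both P6 arrays above both P3 arrays. Choosing genes by a high P6 value favours such a pattern, so the 7 of 10 is not evidence about the members. Among the 48 genes with a P3 minus E18 difference at least as large as that of Thy1, 17 had both P6 arrays above both P3 arrays, and 10 of the 17 were not members. Of the first 18 genes by P6 minus E18 difference, 13 had this pattern, among them 6 of the 8 that were not members.

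**Figure D3:**
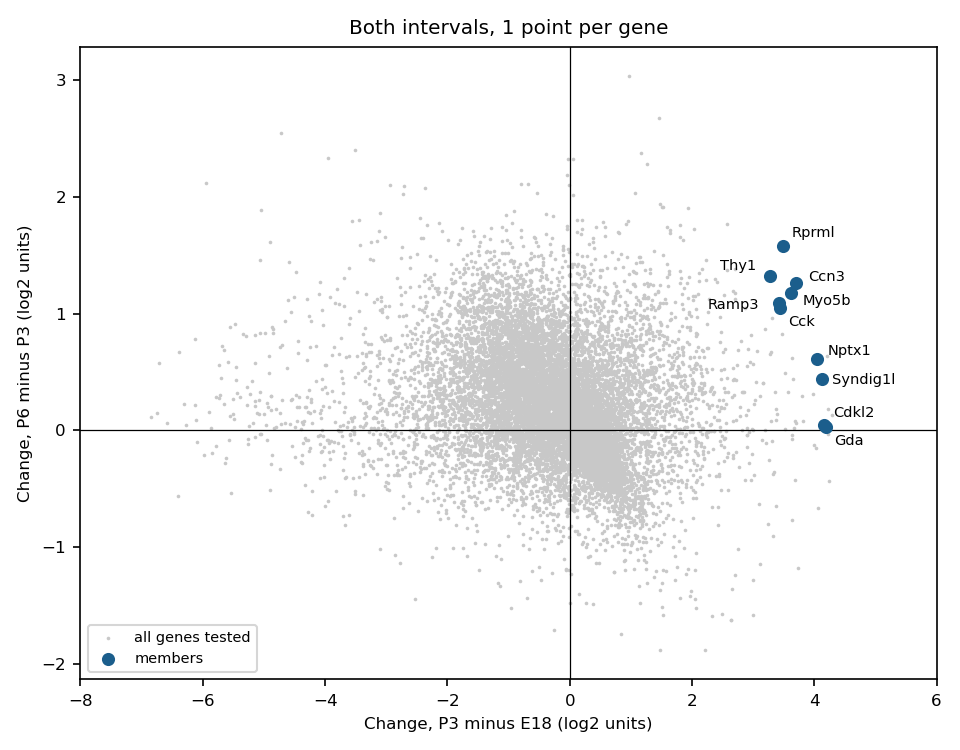
Change from E18 to P3 (x axis) and from P3 to P6 (y axis) in log2 units for 13645 genes, with the 10 members in blue. The members lie between 3.28 and 4.18 on the x axis and spread between 0.03 (Gda) and 1.58 (Rprml) on the y axis.

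The members were chosen for a large difference from E18, and P6 against P3 was compared to separate early plateau from continued rise. This comparison shares the P6 and P3 arrays with the contrasts that chose the members. Choosing by a high P6 value favours a positive P6 minus P3 difference, which the intervals and p-values below do not allow for. Rprml was higher at P6 than at P3 by 1.58 ± 0.37 log2 units (SE from limma, n = 2 arrays a stage; 95% interval 0.71 to 2.46; adjusted p = 0.120). Thy1 differed by 1.32 ± 0.28 (0.67 to 1.97; adjusted p = 0.117), Ccn3 by 1.26 ± 0.25 (0.67 to 1.85; adjusted p = 0.113) and Myo5b by 1.18 ± 0.26 (0.57 to 1.79; adjusted p = 0.120). These 4 genes were 2.27-fold to 3.00-fold higher at P6, and their intervals lay above 0, but none passed the test after adjustment over 13645 genes. The intervals are for single genes and are not adjusted. With quantile normalization Rprml stood 1.27 log2 units higher at P6 than at P3, Thy1 1.03, Ccn3 0.92 and Myo5b 0.85. The median P6 minus P3 difference of all genes tested was 0.16, and 0.03 with quantile normalization.

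Ramp3 differed by 1.10 ± 0.46 (0.01 to 2.19; limma adjusted p = 0.251) and Cck by 1.05 ± 0.37 (0.18 to 1.92; adjusted p = 0.194) between P6 and P3. With quantile normalization these differences were 0.78 and 0.72. Nptx1 differed by 0.61 ± 0.22 (0.10 to 1.12; adjusted p = 0.194), and by 0.28 with quantile normalization (adjusted p = 0.504). Syndig1l, at 0.44 ± 0.34 (-0.36 to 1.23; adjusted p = 0.499), had an interval on both sides of 0. So had Cdkl2, at 0.04 ± 0.22 (-0.48 to 0.57; adjusted p = 0.931), and Gda, at 0.03 ± 0.23 (-0.51 to 0.57; adjusted p = 0.951). The upper bounds for Gda and Cdkl2 correspond to a 1.49-fold and 1.48-fold higher level at P6 and hold for these probe sets alone, since 1435748_at of Gda was 1.80-fold higher at P6 than at P3.

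Limma called 0 of the 10 members and 0 of all genes tested (0%) between P6 and P3. At an unadjusted p under 0.05 there were 7 members and 2696 of 13645 genes, which is 19.8%. Choosing genes by a high P6 value favours such differences too, so these 7 are not evidence about the members. The astrocyte list also stood higher at P6 than at P3, with 5 of its 8 genes at an unadjusted p under 0.05 and none called, and its part in the members' values was not tested. Leaving out P3 replicate 1 brought calls by limma, among them Rprml, Ccn3, Myo5b, Thy1, Syndig1l and Cck, and leaving out P3 replicate 2 brought none. In the fit with these calls P3 replicate 2 was the lone P3 array and was taken to vary like the other groups. That array had a high 18S signal and the largest Actb 3′ over 5′ difference of the 6 arrays, at 1.76. The choice of members by a high P6 value favours these calls too.

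The P3 arrays decided the size of several of these differences. Without P3 replicate 2, Cck stood 0.49 log2 units higher at P6, and without P3 replicate 1 it stood 1.61 higher. For Ramp3 the values were 0.65 and 1.54, and for Syndig1l -0.050 and 0.92. Ccn3 (1.25 and 1.28), Nptx1 (0.61 for both) and Thy1 (1.40 and 1.25) differed little between these choices. The P6 arrays mattered most for Rprml and Ramp3, which stood at 1.04 and 0.46 without P6 replicate 2 and at 2.13 and 1.73 without P6 replicate 1. With both arrays of high 18S signal left out, Rprml stood 1.91 higher at P6, Thy1 1.70, Ccn3 1.48, Ramp3 1.28, Myo5b 0.83, Cck 0.56, Nptx1 0.55 and Gda 0.14, while Syndig1l stood at -0.07 and Cdkl2 at -0.11, as values without a test.

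**Figure D4:**
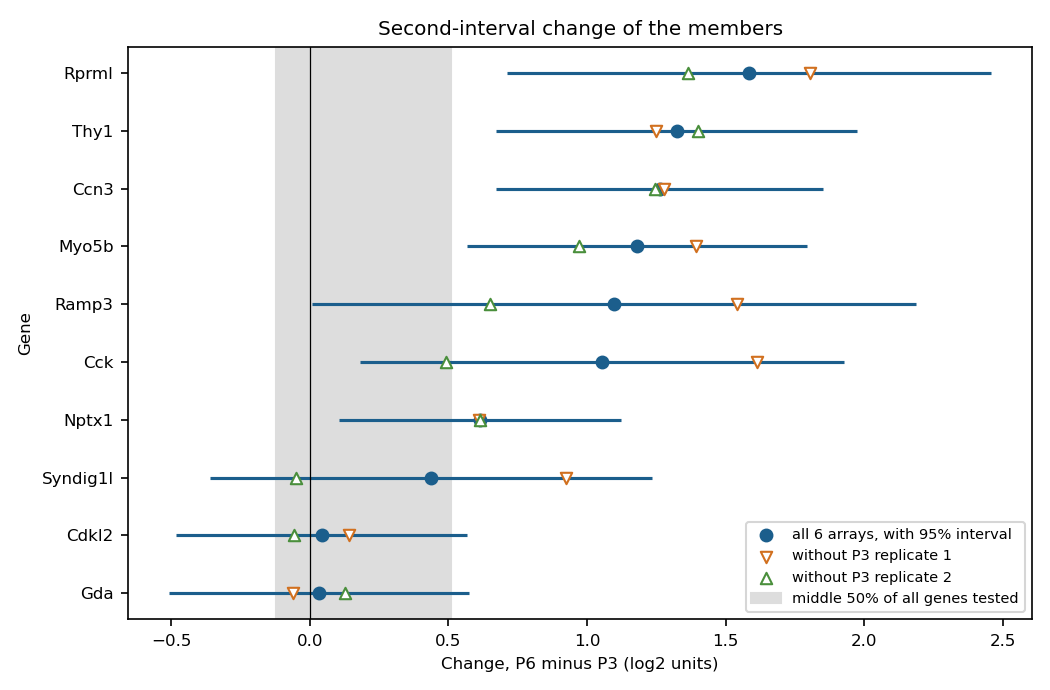
Change between P6 and P3 (log2 units, x axis) for each member, with the 95% interval from limma on all 6 arrays and open triangles for the values without P3 replicate 1 or 2; the grey band holds the middle 50% of all genes tested (-0.12 to 0.51). Cck, Ramp3 and Syndig1l move most with the choice of P3 array, and the Gda and Cdkl2 values stay within the band.

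Other probe sets of 5 members gave different P6 minus P3 values. When each of 34945 probe sets was tested on its own, the second probe set of Syndig1l differed by 1.36 ± 0.28 between P6 and P3, against 0.44 for the representative one. The second one of Gda differed by 0.85 ± 0.26, against 0.03, and 1457625_s_at of Cdkl2 by -0.95 ± 0.34, against 0.04. Limma called none of these after adjustment (adjusted p = 0.189, 0.236 and 0.271). The P6 and P3 arrays of Syndig1l were thus separate in 1 of 2 probe sets, and those of Gda in 1 of 3. Among the 7 members with P6 above P3, the other probe set of Nptx1 differed by -0.25 ± 0.34, against 0.61, and 1441104_at of Myo5b by 0.12 ± 0.17, against 1.18, both with overlapping arrays. With the mean of all probe sets of a gene, Nptx1 stood at 0.18 (limma adjusted p = 0.653), Myo5b at 0.64, Syndig1l at 0.90, Gda at 0.41 and Cdkl2 at -0.28.

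Likeness of pattern was measured as the root mean square difference between genes' log2 values over the 6 arrays, each gene centred on its own mean. The choice of members fixes part of it, so these distances are a description. The gene nearest to Gda was Cdkl2, at 0.12 log2 units, and the nearest to Cdkl2 was Necab1, at 0.05. Ccn3 was nearest to Thy1 (0.20), Rprml to Ccn3 (0.25) and Ramp3 to Rprml (0.29). Gng4 was nearest to both Nptx1 (0.16) and Syndig1l (0.23), Ptk2b to Myo5b (0.22) and Prickle1 to Cck (0.26). The widest pair among the members was Rprml and Gda, at 0.73.

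Windows of 300 bases around the start site, from 250 bases before it to 50 after it, were available from RefSeq (GRCm38.p6) for 5 members, Rprml, Ramp3, Cck, Gda and Cdkl2, with 2 windows for Cdkl2. They are shown for members of both patterns, to set the letters beside the values. Rprml and Cck had P6 above P3, and Gda and Cdkl2 had overlapping stages. The 4 windows run 5′ to 3′ on the gene's strand: chr11:103649259-103649558 (plus) for Rprml, chr9:121495645-121495944 (minus) for Cck, chr19:21472612-21472911 (minus) for Gda and chr5:92042647-92042946 (minus) for Cdkl2. Capitals mark every match, on either strand, to the motifs searched.
Rprml: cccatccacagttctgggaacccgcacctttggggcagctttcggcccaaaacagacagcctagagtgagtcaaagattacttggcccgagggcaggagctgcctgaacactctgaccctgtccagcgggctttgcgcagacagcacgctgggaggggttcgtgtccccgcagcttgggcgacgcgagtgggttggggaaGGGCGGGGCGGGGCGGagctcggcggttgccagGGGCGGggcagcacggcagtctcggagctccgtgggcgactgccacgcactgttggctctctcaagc
Cck: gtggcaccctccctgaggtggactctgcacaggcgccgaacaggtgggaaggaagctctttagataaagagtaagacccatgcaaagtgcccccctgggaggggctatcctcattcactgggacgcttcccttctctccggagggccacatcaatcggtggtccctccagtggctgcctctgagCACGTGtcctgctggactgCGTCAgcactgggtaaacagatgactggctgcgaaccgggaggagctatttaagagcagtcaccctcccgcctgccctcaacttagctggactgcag
Gda: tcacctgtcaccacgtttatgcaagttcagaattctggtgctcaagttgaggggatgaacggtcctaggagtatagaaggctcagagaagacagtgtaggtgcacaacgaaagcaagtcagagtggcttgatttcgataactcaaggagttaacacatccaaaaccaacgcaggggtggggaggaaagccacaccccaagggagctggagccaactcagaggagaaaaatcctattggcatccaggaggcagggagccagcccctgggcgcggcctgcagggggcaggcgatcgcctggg
Cdkl2: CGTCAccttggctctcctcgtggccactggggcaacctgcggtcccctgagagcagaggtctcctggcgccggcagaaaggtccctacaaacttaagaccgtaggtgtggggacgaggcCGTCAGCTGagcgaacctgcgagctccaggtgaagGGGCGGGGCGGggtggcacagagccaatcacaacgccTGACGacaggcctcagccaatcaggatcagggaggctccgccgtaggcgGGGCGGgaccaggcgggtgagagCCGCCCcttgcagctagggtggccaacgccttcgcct

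The motifs were the cAMP response element TGACGTCA, its half-site TGACG, the E-boxes CAGCTG and CACGTG, the TATA box TATAAA, the GC box GGGCGG, the Egr1 motif GCGGGGGCG and the MEF2 motif. Rprml had 4 GC boxes between positions -50 and -17 from the start site, of which 3 overlap by 1 base each, Ramp3 had 3, and the Cdkl2 windows had 4 and 2. A GC box stood in 35.7% of 32851 windows of this length. Cck alone had the E-box CACGTG, at -66, which 7.15% of all windows held, and a half-site at -47. The Cdkl2 window shown held 3 half-sites, of which the one at -131 overlaps its E-box CAGCTG at -128; half-sites stood in 20.8% of windows and that E-box in 16.3%. The full response element (1.79% of windows), the TATA letters (13.6%), the Egr1 motif (2.91%) and the MEF2 motif (3.69%) matched in none of the 6 windows, and the Gda window had no match to any motif. A match is a run of letters and does not show binding.

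Relatives and partners of the members were followed in lists by role, with tests over all genes. Over all genes tested, limma called 15.5% higher and 25.7% lower at P3 than at E18. Between P6 and E18 the shares were 14.8% higher and 16.9% lower. The 2 genes with the smallest p in each list are given with their values, and a further gene is named after its values were seen where it completes a count of 3. For the synaptic proteins, 3 of 11 tested genes for pentraxins, SynDIG proteins and AMPA receptor subunits or partners were called higher at P3 than at E18, and none lower, with a median of 0.60. Gria3, an AMPA receptor subunit, stood at 8.89 and 8.27 at P3 against 6.67 and 6.85 at E18 and was 3.53-fold higher (SE 0.31 log2 units, limma adjusted p = 0.00396). Syndig1, the relative of Syndig1l, stood at 8.96 and 8.62 at P3 against 7.79 and 7.58 at E18, 2.15-fold higher (SE 0.24, adjusted p = 0.00986), beside 17.4-fold for Syndig1l. Syndig1 was not called without E18 replicate 1 or 2 (adjusted p = 0.0828 and 0.152). Cacng3 was the other one, an AMPA receptor auxiliary subunit. Between P6 and E18 the count was 8 of 11 higher, and with quantile normalization 7 of 11 were called higher at P3.

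Thy1 belongs to the lipid-anchored surface proteins. Of 12 IgLON and other lipid-anchored surface protein genes, 6 were called higher at P3 than at E18 and none lower. The shares over all genes were 15.5% and 25.7%, and the median of the list was 0.74. Cntn1, an adhesion molecule of axons, stood at 13.08 and 12.71 at P3 against 9.46 and 9.58 at E18 and was 10.4-fold higher (SE 0.21, limma adjusted p = 4.08e-05). The IgLON gene Opcml was 6.87-fold higher (SE 0.35, adjusted p = 0.00108). Between P6 and E18, 7 of the 12 were called higher and none lower.

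Neuropeptides such as that of Cck are cut from precursors and stored in dense-core vesicles. Of 10 tested genes for cholecystokinin receptors and peptide processing, 5 were called higher at P3 than at E18 and none lower. The shares over all genes were 15.5% and 25.7%, and the median of the list was 0.70. Chgb, a granin of dense-core vesicles, stood at 12.23 and 12.18 at P3 against 8.62 and 8.68 at E18, 11.8-fold higher (SE 0.30, limma adjusted p = 0.000151), and Chga was 3.08-fold higher (SE 0.23, adjusted p = 0.00182). Between P6 and E18, 6 of the 10 were called higher and none lower.

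Ccn3 has relatives that share its domain layout. Of 4 tested CCN genes, 3 were called lower at P3 than at E18 and none higher, against 25.7% and 15.5% over all genes. Ccn2, a marker of subplate and layer 6b neurons, stood at 7.07 and 5.99 at P3 against 10.12 and 10.15 at E18, a difference of -3.60 log2 units (SE 0.36, limma adjusted p = 0.00034). Ccn1 stood at 6.80 and 7.22 at P3 against 7.79 and 7.83 at E18 (SE 0.21, adjusted p = 0.0229), and Ccn4 was the other one. With the mean of all probe sets Ccn1 differed by -2.40 between P3 and E18 (limma adjusted p = 6.3e-05), against -0.80 for the representative one. With quantile normalization 2 of the 4 were called lower, and Ccn1 was not (adjusted p = 0.0623). Ccn1 was also not called without E18 replicate 1 or 2 (adjusted p = 0.134 and 0.160).

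None of 4 tested genes for RAMPs and their ligands was called in either direction between P3 and E18, and the receptor genes Calcr and Calcrl fell under the filter on dim genes. Ramp1 differed by -1.41 ± 0.74 (SE; limma adjusted p = 0.157) between P3 and E18, and was called lower without P6 replicate 1 or 2 (adjusted p = 0.00343 and 0.00278). It stood at 8.62 on P6 replicate 2 and 5.86 on P6 replicate 1, and at 7.23 and 7.36 at E18. Ramp3 and the microglia list had the same order on the P6 arrays. On the P3 arrays Ramp1 stood at 5.92 and 5.85, Ramp3 at 10.61 and 9.72, and the microglia list at 6.71 and 7.52. The part of microglia in these values was not tested. Adm2 differed by 0.43 ± 0.20 (adjusted p = 0.116), and by 0.61 without P3 replicate 1, where it was called (adjusted p = 0.0365).

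For the motor Myo5b, 0 of 10 tested genes for class V myosins and Rab11 partners were called higher at P3 than at E18 and 3 were called lower, near the 25.7% called lower over all genes. These were Rab11fip3, at -1.24 log2 units (SE 0.28, limma adjusted p = 0.0123), Rab11a, at -1.05 (SE 0.31, adjusted p = 0.0335), and Rab11b. With quantile normalization the counts were 4 higher and 2 lower. With the mean of all probe sets Rab11a stood at -0.25 (adjusted p = 0.466) and Rab11fip3 at -0.53. Rab11fip3 and Rab11a were not called without E18 replicate 1 (adjusted p = 0.0581 and 0.168) or E18 replicate 2 (0.0691 and 0.187), nor Rab11fip3 without P3 replicate 2 (0.0581), nor Rab11a without P6 replicate 1 or 2 (0.0624 and 0.0627). Rab11a stood at 10.20 and 10.41 at P6, against 9.76 and 8.94 at P3, and was not called between P6 and E18 (adjusted p = 0.827).

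All 3 tested relatives of Cdkl2 were called higher at P3 than at E18: Cdkl1 by 3.31-fold (SE 0.27, limma adjusted p = 0.00296), Cdkl3 by 2.64-fold (SE 0.35, adjusted p = 0.0188) and Cdkl4. Cdkl1 stood at 6.41 and 7.06 at P6, against 7.55 and 8.07 at P3, and Cdkl4 stood at 6.63 and 6.65 at P6, against 7.40 and 8.91 at P3. Both therefore had the P6 arrays below the P3 arrays, without passing the test of that difference (limma adjusted p = 0.135 and 0.153). The representative probe set of Cdkl2 had overlapping P6 and P3 arrays, while its probe set 1457625_s_at also had the P6 arrays below the P3 arrays. Without P3 replicate 1, Cdkl3 was higher by 0.90 and not called (adjusted p = 0.065).

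Of 8 tested purine enzyme genes beside Gda, 2 were called lower at P3 than at E18 and none higher, close to the 25.7% called lower over all genes. Pnp, which makes guanine and hypoxanthine from their nucleosides, stood at 7.14 and 6.51 at P3 against 10.07 on both E18 arrays, a difference of -3.25 log2 units (SE 0.38, limma adjusted p = 0.000789). Ampd3, an AMP deaminase, differed by -2.68 (SE 0.31, adjusted p = 0.000741). With quantile normalization the counts were 3 higher and 2 lower. Rprm, the relative of Rprml, stood at 11.52 and 10.55 at P3 against 10.35 and 10.41 at E18 (0.65 ± 0.33, adjusted p = 0.141), and was called with quantile normalization (1.03, adjusted p = 0.00745) and without P3 replicate 2 (1.14, adjusted p = 0.00534).

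**Figure D5:**
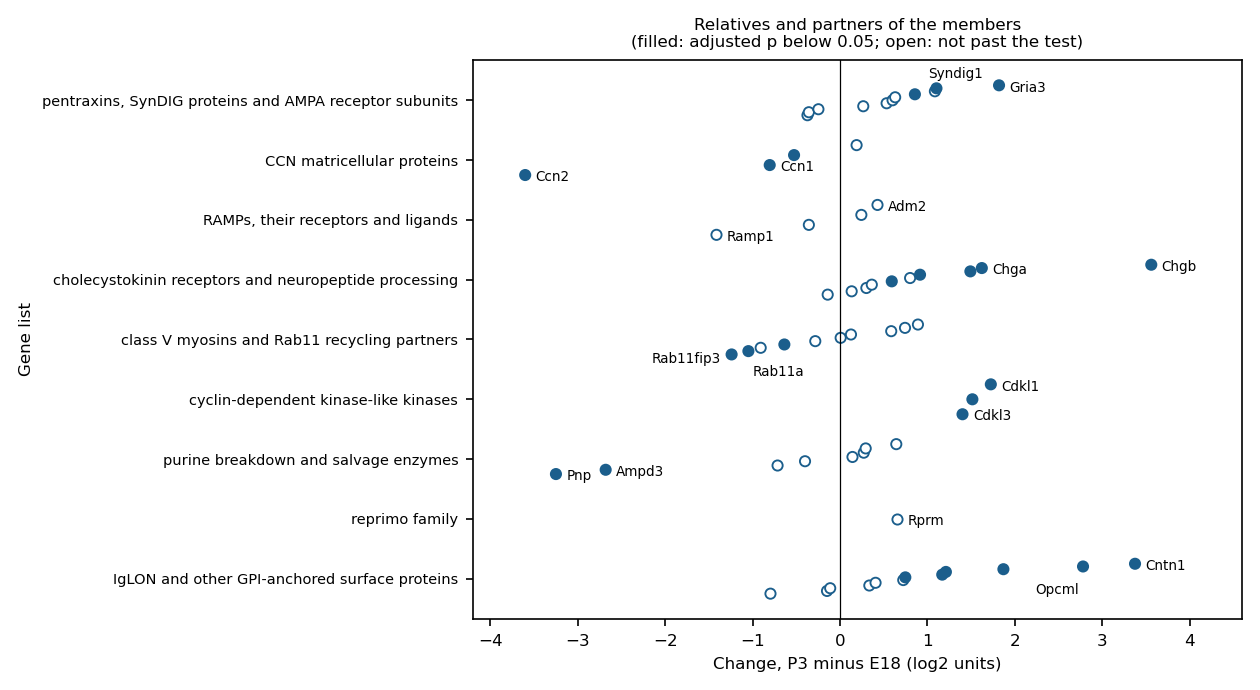
Change from E18 to P3 (log2 units, x axis) of each tested gene in 9 lists of relatives and partners of the members, filled where limma's adjusted p was below 0.05; the 2 genes with the smallest p in each list are named. Filled points lie on the right for the pentraxin, neuropeptide, surface protein and Cdkl lists and on the left for the CCN, myosin and purine lists.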

How the data were processed

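Gene expression was measured on 1 Affymetrix array per sample, with 2 arrays at each of E18, P3 and P6. The deposited values are in log2 units; the submitters' processing notes name RMA as the authors' method. Its version, and whether all arrays were run together, are not given in the sources used here. RMA subtracts background, normalizes between arrays and summarises probes into probe sets. Of 45101 probe sets, 34945 carry 1 gene symbol in the platform annotation, 932 carry several and were not named, and 64 control probe sets were left out of the tests. The brightest probe set by mean value stood for each of 18193 genes, and the lowest 25% of genes by mean were left out, which left 13645. Stages were compared with limma 3.58.1 in R 4.3.3 (lmFit and eBayes with an intensity trend, all 6 arrays, 3 residual degrees of freedom, two-sided), with Benjamini-Hochberg adjustment over all genes tested and a threshold of 0.05. The fit was tested on simulated data. The number of arrays limits the precision.

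The members, lists and tests were chosen with earlier results of these data known. The members were selected on the contrasts with E18, so no test of them is given there. Named genes are the 10 members with every probe set, the 2 genes with the smallest p in each list, and the gene nearest to each member. Outside this rule, the genes around the members in the P6 minus E18 ranking, Calcr, Calcrl, Npy, Cacng3, Ccn4, Rab11b and Cdkl4 were named after their values were seen. Alternatives changed the scaling, filter, probe set choice, fit, pairing and arrays. Promoter windows and their coordinates are from RefSeq (GRCm38.p6), and 4 members have no window shown; no sequence of Myo5b is shown.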

Additional observations from a re-analysis of the deposited data

How the results depend on the processing

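No other setting brought any P6 minus P3 call, except that leaving out single arrays gave between 0 and 3922 genes and between 0 and 6 members, the highest both without P3 replicate 1, and that a block with the P3 numbers swapped, chosen after seeing the data, gave 411 genes and 3 members. The replicate block called 5201 genes for P3 minus E18, 4054 for P6 minus E18, and 0 genes and 0 members for P6 minus P3; same-numbered arrays did not deviate together (correlations of deviations -0.20, 0.04 and -0.14), so the numbers are not taken to pair the arrays. The counts of 5629 genes for P3 minus E18 and 4320 for P6 minus E18 became 9981 and 7389 with every probe set tested, 2452 and 2366 with the E18 arrays averaged, and 2263 and 2485 with a covariate for the level of the hybridization controls, chosen after seeing the data. Leaving out single arrays gave 2397 to 7871 and 2338 to 6161. Among the single arrays, leaving out an E18 array gave the lowest counts for both. The 2 genes with the smallest P3 minus E18 p in each list of relatives and markers (Rprm alone in its list) were followed under other settings. Of their P3 minus E18 values, 544 kept their direction and side of the threshold, 27 were no longer called and 7 became called. These genes were picked by their p, and the counts do not cover the other list genes. Quantile normalization turned the split of P3 minus E18 calls to 2880 higher and 2785 lower, against 2116 and 3513, and moved the median of all genes to 0.09, against -0.13. In P6 minus P3, quantile normalization put Gda at -0.28, Cdkl2 at -0.28, Nptx1 at 0.28 and Syndig1l at 0.10, and the mean of all probe sets put Cdkl2 at -0.28, Nptx1 at 0.18, Myo5b at 0.64, Syndig1l at 0.90 and Gda at 0.41. Leaving out single arrays gave -0.050 (without P3 replicate 2) to 0.92 (without P3 replicate 1) for Syndig1l, -0.059 (without P3 replicate 1) to 0.13 (without P3 replicate 2) for Gda, and -0.056 (without P3 replicate 2) to 0.14 (without P3 replicate 1) for Cdkl2, which also stood at -0.0078 without P6 replicate 1. The covariate put Ramp1 at 0.52 for P3 minus E18. The cause of these changes was not tested. With 2 arrays a stage, small P6 minus P3 differences could not be told from replicate spread.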
